A study of Boehmeria nivea with 10 samples.

Results

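Early hydroponic roots of ramie (Boehmeria nivea), a nettle relative grown for the fibre of its stems, were compared with terrestrial roots of the same species. The early hydroponic libraries came from roots induced in water on seedlings 5 days old, and the terrestrial libraries from soil-grown roots of seedlings 30 days old. There were 3 libraries of each, so the comparison took 6 of the 10 samples of the series, chosen by their labels alone. Seedling age and growth medium changed together, and their contributions cannot be told apart. The labels name no variety, no treatment other than water or soil, and no plant or pool behind a library. Roots were sampled in bulk, so a change in the make-up of cells and a change in RNA per cell cannot be told apart either.

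Roots that form in water meet less oxygen than in aired soil, little mechanical resistance and nutrients already in solution, and hydroponic roots of many plants are known to differ from soil roots in root hairs, air spaces and barrier tissues. A root of a young seedling also holds a larger share of growing tip, whereas an older root carries more mature, lignified and branched tissue. Soil roots live in contact with soil organisms, which water culture largely removes. These points are background on roots and were not measured here.

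Expression was read per contig, a stretch of sequence assembled from pooled root RNA, and contigs carry only assembly identifiers. The tables give neither gene names nor sequences for these identifiers, so root markers could not be checked, no function is given for any contig, and no sequence is shown. The 6 tables listed 38729 contigs, of 671 bases at the median, and 27941 of them (72.14%) stood in all 6. Total expected counts, the estimated reads per contig summed over a library, were 11424582 to 11522430 in early hydroponic and 10473340 to 10702907 in terrestrial libraries. The filter on low counts left 25449 contigs to test, and the other 13280 were too thinly covered.

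Terrestrial replicate 2 stood apart from the other terrestrial libraries. Between libraries, the share of summed FPKM (fragments per kilobase of contig, scaled to the reads of the library) that was not held in common was 8.44% for terrestrial replicates 1 and 3 and reached 15.5% for pairs with replicate 2. Among the 12167 tested contigs with a mean of at least 10 FPKM, 194 in early hydroponic and 438 in terrestrial roots had a highest library at least 4 times the lowest. In 302 of those 438 the library farthest from the median was terrestrial replicate 2, and in 254 it was also the lowest. Early hydroponic roots were less uneven, and their farthest library was replicate 1 in 105 of the 194 contigs, the lowest in 87 of these. The biological coefficient of variation, edgeR's estimate of the relative spread between libraries, was 0.214 in early hydroponic and 0.294 in terrestrial roots, and the order turned without terrestrial replicate 2 (0.2136 and 0.1995). Values without this library are given beside the counts, ranks and shares of FPKM that follow where it was left out.

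The root transcriptome was largely different in the 2 settings. Of the 25449 contigs tested, early hydroponic roots had higher levels of 8176 (32.1%) and lower levels of 8067 (31.7%). That is 63.8% of contigs past a threshold of 0.05 in edgeR's adjusted p, a quasi-likelihood test corrected over all 25449 by the Benjamini-Hochberg method. Those that were higher had a median of 17.6 FPKM in early hydroponic roots, against 6.64 FPKM in terrestrial roots. Those that were lower had a median of 4.46 FPKM in early hydroponic roots, against 16.6 FPKM in terrestrial roots. Changes of 2-fold or more were called in 5921 higher (23.3%) and 5551 lower (21.8%) contigs, 45.1% of those tested. Without terrestrial replicate 2 the filter left 26606 contigs to test. Of these 8478 were called higher and 7894 lower, 61.5% in sum.

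**Figure D1:**
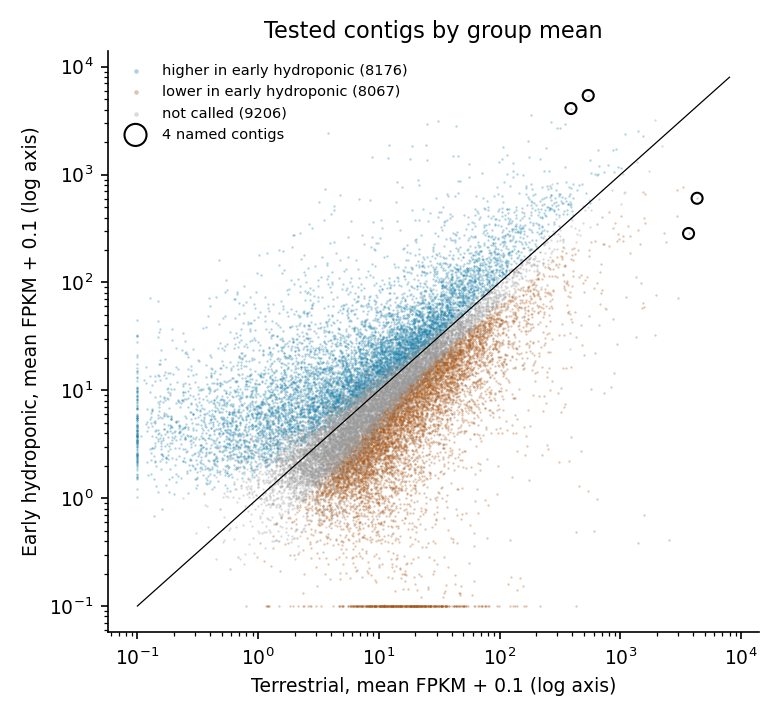
Mean FPKM of each tested contig in early hydroponic roots (vertical) and terrestrial roots (horizontal), both on log axes with 0.1 added. Points are coloured by the test, with 8176 contigs higher and 8067 lower in early hydroponic roots. The line marks equal levels, and open circles are the 4 named contigs. Points on the left or lower edge were unlisted in a whole group and entered as 0.

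Whether more contigs rose or fell depended on the scaling. With TMM scaling, which sets the bulk of contigs level between libraries, 50.3% of called contigs were higher in early hydroponic roots. With library totals alone the split was 6604 higher and 10259 lower, or 39.2% higher. Over all tested contigs the median log2 change was -0.05 with TMM and -0.33 with library totals, a shift of the whole distribution, and changes below are relative to the TMM scale. FPKM levels carry no such scaling. On them, every early hydroponic library lay above every terrestrial one in 7495 contigs and below in 11336, together 74.0% of those tested, against 63.8% called by the test.

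Large changes were common in both directions. Without terrestrial replicate 2 the filter left 26606 contigs to test, a larger set, so these counts are not like for like with the others. Of them, 6143 were higher and 5420 lower by 2-fold or more. In all 6 libraries, with 25449 contigs tested, rises of at least 4-fold were called in 3146 and falls of at least 4-fold in 2382. At 16-fold the counts were 1025 higher and 759 lower (1157 and 877 without terrestrial replicate 2), and at 64-fold they were 372 higher and 504 lower (527 and 638). The order turned at 64-fold through contigs with no count in a whole group, whose fitted change depends on the prior count: these made up 138 of the rises and 409 of the falls. Among contigs with counts in both groups, 234 were higher and 95 were lower by 64-fold or more.

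The most abundant transcripts overlapped less between the 2 kinds of root than within each. None of the 10 contigs with the highest mean FPKM in early hydroponic roots was among the 10 highest in terrestrial roots, and 1 was without terrestrial replicate 2. Of the 100 highest by group mean, 29 were shared. Pairs of 1 early hydroponic and 1 terrestrial library shared 22 to 31. Early hydroponic pairs shared 87 to 88 and terrestrial pairs 77 to 90. Of the 1000 highest by group mean, 497 were shared. Pairs between the groups shared 463 to 527, against 907 to 929 for early hydroponic and 827 to 920 for terrestrial pairs. Without terrestrial replicate 2, 30 of the 100 and 512 of the 1000 highest were shared by the group means. The 100 highest in early hydroponic roots, at 669 to 5409 FPKM, had a median of 249 FPKM and a median rank of 314 in terrestrial roots, where 28 ranked below place 1000 and 5 below place 10000. The 100 highest in terrestrial roots, at 543 to 4312 FPKM, had a median of 286 FPKM and a median rank of 377 in early hydroponic roots, where 31 ranked below place 1000 and 8 below place 10000. Most of the highest contigs of each kind of root thus ranked among the 1000 highest of the other. These sets were picked by their level in 1 group, which by itself favours a lower level in the other.

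The largest gain in FPKM was in CL2837.Contig2_mixA, a contig of 243 bases. It stood at 6482.79, 6142.52 and 3600.93 FPKM in early hydroponic replicates 1, 2 and 3, against 622.71, 505.14 and 495.01 FPKM in terrestrial replicates 1, 2 and 3. All early hydroponic libraries lay far above all terrestrial ones, with replicate 3 the lowest of them. It ranked 1 by mean FPKM in early hydroponic and 101 in terrestrial roots. Its mean was 5409 ± 1575 FPKM in early hydroponic libraries, against 541 ± 71.0 FPKM in terrestrial libraries (SD, n = 3 each). The rise was 3.61 ± 0.27 (SE) on a log2 scale, and edgeR's adjusted p was 9.02e-05.

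The next gain was in CL2837.Contig3_mixA, of 2384 bases and from the same assembly cluster, a set of similar contigs that may be variants of 1 gene or closely related genes. It stood at 4897.12, 4434.03 and 2958.65 FPKM in early hydroponic replicates 1, 2 and 3, against 469.65, 367.45 and 328.72 FPKM in terrestrial replicates 1, 2 and 3. Replicate 3 was again the lowest early hydroponic library, and the groups did not overlap. The rise was 3.68 ± 0.28 (SE) on a log2 scale, and edgeR's adjusted p was 9.07e-05. Neither contig had a whole count in any library, so their reads were divided among contigs and the pair is not 2 separate findings.

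All 5 contigs of that cluster rose, with log2 changes of 3.33 to 3.68 and mean levels of 1280 to 5409 FPKM in early hydroponic libraries, against 129 to 541 FPKM in terrestrial libraries. Summed over the 5, the counts do not depend on how reads were divided within the cluster. The sum made up 2.72%, 2.73% and 1.75% of all expected counts in early hydroponic replicates 1, 2 and 3, against 0.301%, 0.212% and 0.224% in terrestrial replicates 1, 2 and 3. In the fit to counts summed per cluster it rose by 3.58 on a log2 scale, and edgeR's adjusted p was 2.74e-05.

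The largest loss of FPKM was in Unigene28156_mixA, of 1680 bases. It stood at 591.64, 634.4 and 584.19 FPKM in early hydroponic replicates 1, 2 and 3, against 4169.53, 5053.83 and 3711.69 FPKM in terrestrial replicates 1, 2 and 3. The early hydroponic libraries were close together and all below the terrestrial ones. It ranked 131 by mean FPKM in early hydroponic and 1 in terrestrial roots. Its log2 change was -2.56 ± 0.19 (SE), edgeR's adjusted p was 8.75e-05, and terrestrial roots held 7.15 times the early hydroponic mean. Its counts were divided with other contigs in every library. Without terrestrial replicate 2 its log2 change was -2.41.

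Unigene29634_mixA, of 1862 bases, was next. It stood at 118.2, 486.18 and 249.06 FPKM in early hydroponic replicates 1, 2 and 3, against 2996.14, 5371.78 and 2622.88 FPKM in terrestrial replicates 1, 2 and 3. Both groups were uneven, with replicate 2 the highest of each, and the groups did not overlap. Its counts were whole in all 6 libraries. Its log2 change was -3.41 ± 0.60 (SE), and edgeR's adjusted p was 0.00266. Leaving out 1 library at a time put it between -4.04 and -3.01, with -3.01 for terrestrial replicate 2 left out. It ranked 380 by mean FPKM in early hydroponic and 2 in terrestrial roots.

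**Figure D2:**
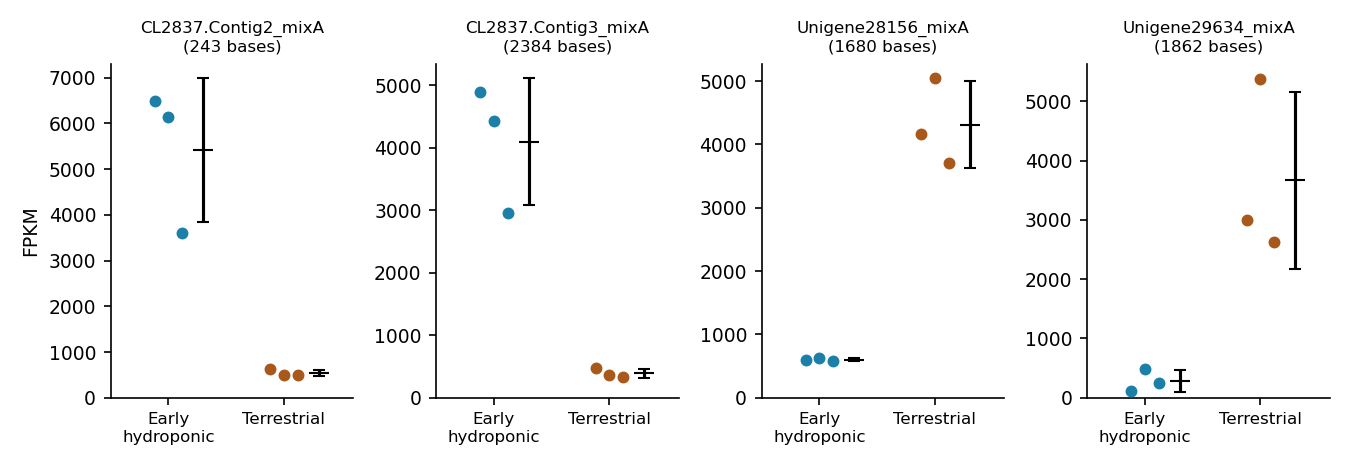
FPKM (vertical, linear from 0) of the 4 named contigs in the 3 early hydroponic and 3 terrestrial libraries, points for libraries 1, 2 and 3 from left to right, bars for the mean and SD. Each contig's early hydroponic and terrestrial libraries do not overlap, which the naming rule requires.

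The 25 largest gains in FPKM and the 25 largest losses were also taken as groups by the same rule. Each group includes the named contigs of its direction. The 25 gains had mean levels of 1364 to 5409 FPKM in early hydroponic libraries, against 3.72 to 541 FPKM in terrestrial libraries, with a median log2 change of 5.31. They held 8.71%, 8.11% and 6.93% of summed FPKM in early hydroponic replicates 1, 2 and 3, against 0.492%, 0.431% and 0.5% in terrestrial replicates 1, 2 and 3. The 25 losses had mean levels of 0.31 to 768 FPKM in early hydroponic libraries, against 1114 to 4312 FPKM in terrestrial libraries, with a median log2 change of -3.32. They held 0.663%, 0.853% and 0.807% of summed FPKM in early hydroponic replicates 1, 2 and 3, against 6.67%, 8.63% and 6.2% in terrestrial replicates 1, 2 and 3. Of the gains 16 were 16-fold or more and 12 carried 1 of 6 cluster numbers. Of the losses 9 were 16-fold or more and 5 carried 1 of 4 cluster numbers. Both groups were chosen for these values, so they are a description.

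In these libraries 50% of summed FPKM lay in fewer contigs in early hydroponic than in terrestrial roots. The fewest contigs that together held 50% of summed FPKM numbered 980, 1006 and 1022 in early hydroponic replicates 1, 2 and 3, against 1702, 1453 and 1808 in terrestrial replicates 1, 2 and 3. The groups did not overlap, and terrestrial replicate 2 was the terrestrial library nearest to the early hydroponic ones. The mean was 1002.7 ± 21.2 in early hydroponic and 1654.3 ± 182 in terrestrial roots (SD, n = 3 each). The exact two-sided permutation p was 0.1, the smallest that 3 against 3 libraries can give, and 0.2 after adjustment over the 6 measures of composition that were tested. The difference, early hydroponic minus terrestrial, was -651.7 contigs, -752.3 without terrestrial replicate 2, and -307.7 when shares of expected counts were taken in place of FPKM.

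The shares held by the very highest contigs overlapped between the groups. The 10 highest contigs of a library held 3.906 to 5.047% of summed FPKM in early hydroponic and 3.984 to 4.911% in terrestrial libraries (exact permutation p = 0.4, adjusted 0.4). The 100 highest held 17.66 to 19.31% in early hydroponic and 15 to 18.51% in terrestrial libraries, and the overlap came from terrestrial replicate 2 (exact permutation p = 0.2, adjusted 0.24). Without that library the terrestrial ones held 15 and 16.2%, below all early hydroponic ones. The difference was 2.172 percentage points, 3.14 without terrestrial replicate 2 and 1.389 without terrestrial replicate 3. With so few libraries these tests cannot show that the groups were alike. Early hydroponic libraries listed 33891 to 34409 contigs, against 33480 to 33974 in terrestrial ones, and these ranges overlapped too (exact permutation p = 0.2, adjusted 0.24). The mean difference was 403.7 contigs, and 254.8 without terrestrial replicate 2. More of those listed were under 1 FPKM in early hydroponic than in terrestrial libraries, 16.88 to 17.26% against 13.75 to 15.96%. Contigs with a cluster number held 31.09 to 32.21% of expected counts in early hydroponic and 27.78 to 28.01% in terrestrial libraries. For both of these measures the exact permutation p was 0.1, adjusted 0.2.

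**Figure D3:**
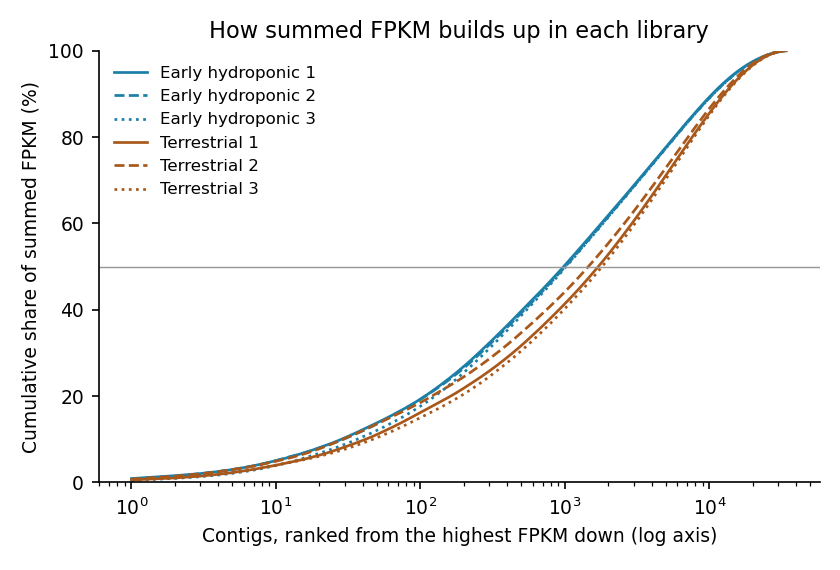
Share of a library's summed FPKM (vertical, percent) held by its contigs ranked from the highest down (horizontal, log axis), one line per library. The early hydroponic lines reach 50% at 980 to 1022 contigs and the terrestrial lines at 1453 to 1808.

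Set against each other contig by contig, early hydroponic and terrestrial libraries did not share 40.6 to 46.9% of their summed FPKM. Pairs of early hydroponic libraries did not share 8.35 to 9.61%, and pairs of terrestrial libraries 8.44 to 15.5%. Without terrestrial replicate 2 the range between the groups was 40.6 to 43.9%. Every one of the 9 pairs between the groups therefore differed by more than any pair within a group.

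The calls were not spread evenly over expression levels. Among the 1155 contigs with a mean of 100 to 1000 FPKM over the 6 libraries, early hydroponic roots had 665 higher and 320 lower, 85.3% in sum. At 1000 FPKM or more, 22 were higher and 12 lower of 39 tested. At 10 to 100 FPKM the directions were even, with 3928 higher and 3896 lower, 71.3% of 10973. At 1 to 10 FPKM, 3495 were higher and 3815 lower, 55.9% of 13074. Under 1 FPKM the filter had left 208 contigs, of which 66 were higher and 24 lower. Higher counts also give the test more precision, so the shares called are not comparable as effect sizes across levels. The lean towards higher in abundant contigs remained with library totals alone, at 596 higher and 368 lower for 100 to 1000 FPKM, and without terrestrial replicate 2, at 669 and 329, while at 10 to 100 FPKM library totals gave 3075 higher and 4962 lower.

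Short contigs went the other way. Of 4990 tested contigs under 500 bases, early hydroponic roots had 1011 higher and 2129 lower, so that 32.2% of the called ones were higher. Of 9204 contigs of 1000 to 2000 bases, 3574 were higher and 2417 lower, or 59.7% higher. Contigs of 500 to 1000 bases gave 51.7% and contigs of 2000 bases or more 49.3%. The share called varied little with length in all 6 libraries, at 61.6 to 65.1% in the 4 classes. Without terrestrial replicate 2 it was 56.9%, 58.7%, 64.4% and 64.8% from the shortest class to the longest. Among contigs under 500 bases the lean lay in those of low level. At 1 to 10 FPKM, 513 were higher and 1493 lower, and at 10 to 100 FPKM, 406 were higher and 602 lower, whereas at 100 to 1000 FPKM, 86 were higher and 33 lower. The lean of short contigs towards lower was also seen with library totals alone (834 higher, 2497 lower) and without terrestrial replicate 2 (1146 higher, 2119 lower). That of the 1000 to 2000 base class turned with library totals, at 2908 higher and 3223 lower. The tested contigs included 409 listed in terrestrial roots alone and 138 listed in early hydroponic roots alone, all of them called. Their part in the lean of short contigs was not tested.

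**Figure D4:**
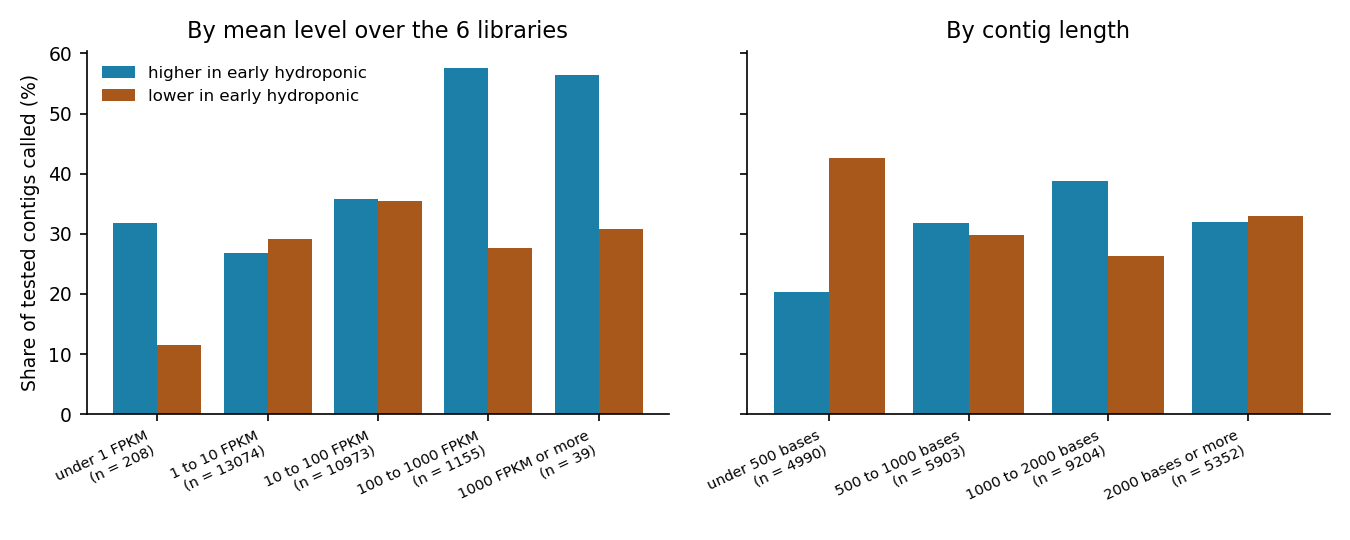
Share of tested contigs called higher (left bar of each pair) and lower (right bar) in early hydroponic roots, in percent, by mean FPKM over the 6 libraries and by contig length, with the number tested under each class. Contigs of 100 to 1000 FPKM were mostly higher (665 against 320), and contigs under 500 bases mostly lower (1011 higher, 2129 lower).

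Some contigs were listed in all 3 libraries of 1 group and in none of the other. There were 1189 (3.07% of all listed contigs) in early hydroponic and 977 (2.52%) in terrestrial roots. An unlisted contig was entered as 0, an inference from the tables, and the early hydroponic libraries were somewhat deeper. The 2 sets differed in level. Those listed in early hydroponic roots alone had a median of 1.43 FPKM there, 26 of them reached 10 FPKM and 0 reached 100 FPKM. Those listed in terrestrial roots alone had a median of 5.74 FPKM there, 341 reached 10 FPKM and 8 reached 100 FPKM. With at least 10 expected counts in all 3 libraries, 152 contigs were left in the early hydroponic and 409 in the terrestrial set, so the order of the 2 counts turned with the minimum. The tests called all of the 138 early hydroponic and 409 terrestrial ones that passed the filter, against 63.8% of all contigs tested. These contigs could pass the filter only through the group where they were listed.

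The highest contig listed in early hydroponic roots alone, of 437 bases, stood at 35.68, 48.35 and 50.62 FPKM in early hydroponic replicates 1, 2 and 3. Against a floor of 3 counts over the terrestrial group it was at least 212-fold higher. The highest contig listed in terrestrial roots alone, of 519 bases, was unlisted in early hydroponic roots and stood at 228.45, 567.21 and 499.53 FPKM in terrestrial replicates 1, 2 and 3. Against a floor of 3 counts over the early hydroponic group it was at least 2261-fold lower in early hydroponic roots. These floors are ratios of counts without scaling and cover counting error only. Together the early hydroponic set held 0.284 to 0.436% of summed FPKM in early hydroponic libraries, and the terrestrial set held 1.2 to 2.2% in terrestrial libraries. Both sets were short, with 78.0% of the early hydroponic and 74.1% of the terrestrial contigs under 500 bases, against 42.2% of all contigs in the 6 tables. Most contigs of both sets did not pass the count filter. Contigs under 500 bases were fewer among those that passed it (4990 of 25449) than among all contigs (16342 of 38729). Whether the sets were shorter than other contigs as thinly covered was not tested. Which organism a contig came from was not tested.

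**Figure D5:**
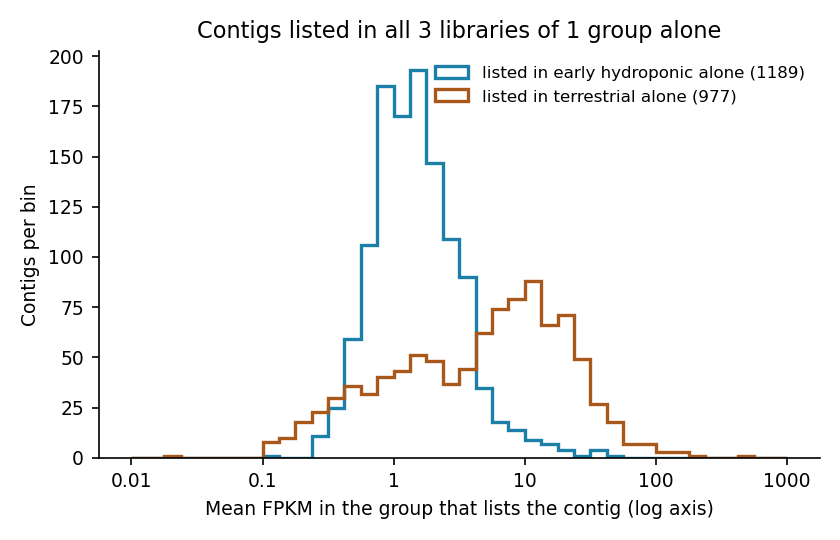
Number of contigs (vertical) by mean FPKM in the group that lists them (horizontal, log axis), for the 1189 contigs listed in early hydroponic libraries alone and the 977 listed in terrestrial libraries alone. The early hydroponic set centres near its median of 1.43 FPKM and the terrestrial set reaches further up, with a median of 5.74 FPKM.

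Where at least 2 contigs of 1 assembly cluster were called, they more often moved together than apart, which shared reads alone can bring about. Of 2663 clusters with at least 2 tested contigs, 645 had no called member and 934 had only 1. Another 512 had at least 2 members called higher and none lower, and 435 at least 2 called lower and none higher. The 645 and 934 clusters with fewer than 2 called members cannot show both directions, though they count among the 2663. Of the 2663, 137 (5.14%) had some members called higher and others lower, and 68 when a call also needed a 2-fold change. In 57 of these the leading contig changed: the member with the highest mean FPKM in early hydroponic roots was called higher, and a different member, called lower, led in terrestrial roots. Both leaders had changed by 2-fold or more in 38 of the 57. When counts were summed per cluster, 54 of the 137 clusters were called higher, 35 lower and 48 not called, and 19 of the 57 with a change of leader were not called. Contigs with whole counts in all 6 libraries were called in 67.3% of 16718 cases, and those with divided counts in 57.3% of 8731.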

How the data were processed

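Per the series' design text, contigs were assembled de novo from a pool of roots read on an Illumina instrument, and each sample was quantified on a BGISEQ instrument. The aligner, counting program and strandedness are not given in the sources used here. Per the file headers, the authors' deposited tables give each contig's length, its expected count and its FPKM. The authors' FPKM values equal expected counts per kilobase of contig, less about 36.5 bases, scaled to a library size of which the listed counts make up 97.26 to 97.42%. Expected counts are estimates; 74.79 to 75.27% of the listed ones were whole within 0.001.

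The 6 tables were joined by contig, with unlisted contigs as 0, and late hydroponic samples and the pool were left out. Rounded counts were tested with edgeR 4.0.16 in R 4.3.3 (filterByExpr with its minimum count of 10, TMM, robust quasi-likelihood fit, 4 residual degrees of freedom, no block). The adjusted p threshold was 0.05, and no p is adjusted over a list. A standard error (SE) is the absolute log2 change over the square root of the F statistic. DESeq2 1.42.0 and limma 3.58.1 were alternatives. All tools were tested on simulated data in which 200 of 25449 contigs changed, by 2-fold or 4-fold. There the share of false calls was above the nominal threshold for edgeR, DESeq2 and limma voom, and many 2-fold changes were missed. These rates belong to that setting and cannot be carried over to the real libraries, where 63.8% of contigs were called. Values per library were compared by exact permutation in SciPy 1.17.1. The 4 named contigs are the 2 largest gains and 2 largest losses of mean FPKM among called contigs with counts in all 6 libraries and groups that do not overlap; the 25 largest are described as groups. The comparison, classes and rules were chosen with earlier results of these data known. Nothing states that the libraries came from separate plants, so the p-values measure only how these samples vary, and that may be technical. No library copied another: counts of replicate pairs gave a chi-square per degree of freedom between 8.75 and 31.4.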

Additional observations from a re-analysis of the deposited data

How the results depend on the processing

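The number of called contigs stayed within 1.5 times its value under every alternative run. It ran from 11458 of 25449 with glmTreat against 1.5-fold to 20445 of 38729 with limma on log2(FPKM + 1) and no filter. With 1 library left out it lay between 14418 and 16372. Changes of filter and libraries left out also changed the number tested. The share called, 63.8% with the main settings, ran from 45.0% with glmTreat to 70.6% with at least 50 counts in 3 libraries. Limma with no filter called 52.8%, and fits with 1 library left out called 54.1 to 61.5%. Each of the 4 named contigs kept its direction and stayed past the threshold in each single-contig alternative that included it, glmTreat among them. As the 4 were chosen from these same libraries for being called with groups apart, this was largely fixed by the choice. The share of called contigs that were higher, 50.3%, was 51.5% with DESeq2, 52.9% with glmTreat, 53.3% with no count filter, and 51.4 to 52.2% with 1 library left out. It turned to 49.9% with at least 50 counts in 3 libraries and with counts summed per cluster, 49.5% with whole counts only, 44.5% with upper quartile scaling, 39.2% with library totals, 39.6% and 39.5% with limma on log2(FPKM + 1) and log2(FPKM + 0.1), and 41% with limma and no filter. The 3 limma fits on FPKM and library totals use no TMM scaling. The cause was not tested further.

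With the replicate number as a replicate block, 14778 contigs were called (7591 higher, 51.4%). Same-numbered libraries did not deviate together (correlations of -0.009, -0.023 and -0.019) and no library correlated best with its own number. No pairing by number was seen, but these values cannot show that same-numbered libraries shared nothing else.

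By class, library totals put the share called at 59.2% for 1 to 10 FPKM, 73.2% for 10 to 100 FPKM, and 66.8%, 63.3%, 66.6% and 68.4% for the length classes from short to long. Without terrestrial replicate 2, a choice made after the data were seen, it was 52.1% for 1 to 10 FPKM, 56.9% under 500 bases and 58.7% at 500 to 1000 bases. The share of called contigs that were higher turned to 38.3% at 10 to 100 FPKM, 41.2% at 500 to 1000 bases and 47.4% at 1000 to 2000 bases with library totals, and to 50.4% at 1 to 10 FPKM and 50.1% at 2000 bases or more without terrestrial replicate 2.

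Contigs listed in 1 group alone numbered 368 (early hydroponic) and 631 (terrestrial) with at least 1 FPKM in all 3 libraries, 152 and 409 with at least 10 counts, and 1364 to 1534 and 1111 to 1239 with 1 library left out, which asks for fewer libraries by construction. Clusters with both directions numbered 68 at changes of at least 2-fold and 111 to 155 with 1 library left out. The coefficient of variation, early hydroponic minus terrestrial, was -0.08, and ran from -0.128 without terrestrial replicate 1 to 0.014 without terrestrial replicate 2. The share in the 10 highest contigs differed by 0.366 percentage points, early hydroponic minus terrestrial, and by -0.397 in expected counts in place of FPKM.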
